A study of Mus musculus with 6 samples.

Results

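The MS4A genes outside those that mark B cells and mast cells were followed in the lungs of Zpbp2 knock-out (KO) and wild type (WT) mice. The family members Ms4a4a, Ms4a4b, Ms4a4c, Ms4a4d, Ms4a6b, Ms4a6c, Ms4a6d, Ms4a7 and Ms4a15 were taken by gene symbol, 9 of the 47069 genes in the count table. They were chosen by an earlier comparison of the same KO and WT counts, so the KO against WT values of these 9 genes are given as a description, and how many of them passed a threshold is stated only beside the share of all genes that did. WT mice were C57BL/6J. KO mice were of the strain B6.129S7-Zpbp2 tmZuk/Mmjax, which lacks exons 1 to 3 of Zpbp2 on a C57BL/6J background, and the WT mice came from the same colony. All 6 mice were adults kept in a light/dark cycle. Lungs were collected at ZT10 (Zeitgeber time, hours after lights on) from 3 mice per genotype, and RNA of each mouse was sequenced as 1 library of messenger RNA (WT4 to WT6 and KO4 to KO6).

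MS4A proteins are small proteins of cell membranes that cross the membrane repeatedly. The best known are CD20, the product of Ms4a1 on B cells, and the beta chain of the high-affinity IgE receptor, the product of Ms4a2 on mast cells. Most other members are expressed by blood and tissue leukocytes, where several associate with other receptors at the cell surface. Ms4a4a and Ms4a7 are known from macrophages, Ms4a4b and Ms4a6b from T cells, Ms4a4c and Ms4a6c from monocytes and Ms4a6d from macrophages, while Ms4a15 is known from lung epithelium.

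The libraries held 19981428 (KO6, the shallowest) to 46796908 (KO5, the deepest) counted reads. At these depths 3 counts corresponded to between 0.0629 and 0.148 CPM, the read count relative to the library size, which was scaled by TMM for all CPM values here, and this floor covers counting error only. Zpbp2 had 1 to 2 counts in the WT mice and 0 in the KO mice. The mouse lungs expressed their defining epithelial genes, with a mean Sftpc level in WT of 12836 CPM and a mean Ager level of 1632 CPM. KO5 stood apart in lymphocyte genes: the summed level of 10 B cell genes was 1017 CPM in KO5, 240.3 and 287 CPM in the other KO mice and 126 to 136 CPM in WT mice. Results that rest on KO5 are therefore also given without it. Each SD is over the 3 libraries of a genotype, from 3 mice.

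In the GRCm38 build and the GENCODE M21 annotation the 9 protein-coding genes lay on chromosome 19, in a block of 679 kb from Ms4a10 to Ms4a3 (chr19:10962293-11640851) that held 35 annotated genes, 21 of them of the MS4A family. On the minus strand lay Ms4a15 (chr19:10978307-10993250), Ms4a7 (chr19:11321039-11336146) and Ms4a6d (chr19:11586604-11604849). On the plus strand, in this order, lay Ms4a4a (chr19:11375523-11392790), Ms4a4c (chr19:11404770-11427246), Ms4a4b (chr19:11443553-11467055), Ms4a6c (chr19:11469366-11482192), Ms4a6b (chr19:11516512-11531256) and Ms4a4d (chr19:11536801-11558467). The coding sequences fell into close groups. Ms4a4b and Ms4a4c were identical at 91.74% of aligned coding bases, Ms4a4c and Ms4a4d at 87.87%, and Ms4a4b and Ms4a4d at 85.63%. Ms4a6b and Ms4a6c were identical at 85.36%, and Ms4a6b and Ms4a6d at 81.23%. Ms4a4a, which shares the MS4A4 name, was identical to these MS4A4 genes at only 67.08% to 68.27%, and Ms4a15 was identical to each of the other 8 at 57.83% to 63.19%.

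RefSeq promoter windows (GRCm38.p6, 250 bases before to 50 bases after a start) were at hand for 8 of the 9 genes, Ms4a6d being the exception. Those of the closest pair, Ms4a4b and Ms4a4c, aligned over 132 bases with 117 identical, and those of Ms4a6b and Ms4a6c over 172 bases with 148 identical. The stretches of the first pair are shown because these neighbouring genes had the closest coding and upstream sequences and had KO levels in the same order of mice. Capitals mark the 8 of 60 bases that differ, 5′ to 3′ on the plus strand, at chr19:11443458-11443517 for Ms4a4b and chr19:11407564-11407623 for Ms4a4c. Neither stretch overlapped an annotated exon. The Ms4a4c stretch lies inside the annotated span of that gene, before a RefSeq start within it.
Ms4a4b: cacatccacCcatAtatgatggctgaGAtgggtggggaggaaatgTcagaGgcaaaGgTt
Ms4a4c: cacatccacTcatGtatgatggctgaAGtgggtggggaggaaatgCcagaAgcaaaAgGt

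6 motifs were searched on both strands of the windows: AGGAAGT (ETS factors such as PU.1), the interferon response element, TTNNGCAA (C/EBP), TGANTCA (AP-1), CACGTG (the E-box of the clock) and AGGTCA (a motif of nuclear receptors such as REV-ERB). No matches in the members overlapped each other. AGGAAGT occurred upstream of Ms4a6c at positions -17 to -11, against 9.351% of all 32851 promoter windows. It also occurred upstream of a start of Ms4a6b at -86 to -80 and, on the other strand, at -43 to -37. That window of Ms4a6b (chr19:11518309-11518608) lies inside the annotated span of the gene, as does the window of Ms4a7 with the match below. TTNNGCAA occurred upstream of Ms4a4d at -12 to -5 (10.8% of all windows) and AGGTCA upstream of Ms4a15 at -89 to -84 (16.26%). TGANTCA occurred at -81 to -75 of a start of Ms4a7 and at 22 to 28 past the start of Ms4a4b (7.808%). The windows of Ms4a4a and Ms4a4c held none of the 6 motifs, and CACGTG (7.15% of all windows) and the interferon response element (3.443%) were in none of the 9 windows of these 8 genes. Upstream stretches of 60 bases are shown for Ms4a6c and for the pair of genes whose levels in KO were nearest to WT, with the matched motif in capitals. They read 5′ to 3′ on the gene's strand at chr19:11469306-11469365 (plus), chr19:11536732-11536791 (plus) and chr19:10993291-10993350 (minus), and none overlapped an annotated exon.
Ms4a6c: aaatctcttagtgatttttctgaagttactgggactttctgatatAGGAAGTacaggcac
Ms4a4d: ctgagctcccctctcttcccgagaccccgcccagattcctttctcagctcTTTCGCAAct
Ms4a15: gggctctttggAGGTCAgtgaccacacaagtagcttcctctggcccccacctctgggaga

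The levels of the 9 genes in WT lung were compared per kilobase of annotated exon (RPKM). In bulk lung, fewer cells of a type and less RNA per cell cannot be told apart. Ms4a4d was the highest by far, at 31.6 ± 1.18 RPKM (SD, n = 3). Ms4a6c followed at 5.78 ± 0.876 RPKM, Ms4a6b at 3.80 ± 0.278 RPKM, Ms4a4a at 3.22 ± 0.187 RPKM, Ms4a6d at 3.13 ± 0.0839 RPKM and Ms4a4c at 2.87 ± 0.337 RPKM. Ms4a4b was at 1.35 ± 0.178 RPKM, Ms4a7 at 0.795 ± 0.0975 RPKM and Ms4a15 at 0.244 ± 0.0408 RPKM. The WT ranges of Ms4a4a and Ms4a6d overlapped, as did those of Ms4a6d and Ms4a4c, while the other neighbours in this order did not overlap. By the longest transcript in place of all exons, Ms4a6d stood at 3.84 RPKM, above Ms4a4a at 3.22 RPKM, and Ms4a4b at 2.49 RPKM.

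Ms4a4a, a macrophage gene whose product associates with the beta-glucan receptor Dectin-1, was at 2.74, 2.83 and 2.52 CPM in WT4, WT5 and WT6 and at 5.67, 3.55 and 9.33 CPM in KO4, KO5 and KO6. The genotypes did not overlap, but the KO mice were spread widely and KO5, the mouse with the most B cell RNA, was the lowest of the KO mice. The log2 fold change was 1.18 ± 0.34 (SE). Without KO5 it was 1.47.

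Ms4a4b, a T cell gene whose product associates with the costimulatory receptor GITR, was at 13.003, 10.1 and 12.5 CPM in WT4, WT5 and WT6 and at 18.2, 35.5 and 21.3 CPM in KO4, KO5 and KO6. Every KO mouse was above every WT mouse, and KO5 stood apart from the other KO mice. The log2 fold change was 1.09 ± 0.25, and 0.73 without KO5.

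Ms4a4c, known from monocytes, had the largest log2 fold change of the 9 genes, 1.58 ± 0.28. Its levels were 5.64, 4.46 and 4.98 CPM in WT4, WT5 and WT6 and 9.43, 20.8 and 14.5 CPM in KO4, KO5 and KO6. The KO mice fell in the same order as for Ms4a4b, with KO5 highest and KO4 lowest, and all lay above the WT mice. Without KO5 the log2 fold change was 1.25. Of the Ms4a4c transcript, 1.72% of windows of 100 bases also occurred in Ms4a4b, and 8.48% of windows of 50 bases in Ms4a4b or Ms4a4d, so counts of short reads there could be split or lost between these genes.

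Ms4a4d, the highest of the genes in WT lung, was the only member of the 9 with lower values in KO. Its levels were 45.9, 48.4 and 49.4 CPM in WT4, WT5 and WT6 and 41.4, 44.5 and 44.1 CPM in KO4, KO5 and KO6. The genotypes did not overlap, but the shift was small, with a log2 fold change of -0.14 ± 0.055. The KO mice of Ms4a4d spanned 3.07 CPM, while those of Ms4a4b, which is close to it in coding sequence, spanned 17.2 CPM.

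Ms4a6b, reported on T cells in association with GITR, was at 18.5, 16.2 and 16.5 CPM in WT4, WT5 and WT6 and at 24.2, 50.5 and 38.4 CPM in KO4, KO5 and KO6. The KO mice were again in the order KO5, KO6, KO4 and did not overlap WT. The log2 fold change was 1.15 ± 0.24, and 0.87 without KO5.

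Ms4a6c, known from monocytes, was at 13.2, 9.82 and 12.5 CPM in WT4, WT5 and WT6 and at 28.8, 29.5 and 43.3 CPM in KO4, KO5 and KO6. Here KO6 was the highest mouse, and even the lowest KO mouse was above the highest WT mouse by more than the whole WT range. The log2 fold change was 1.51 ± 0.19, and 1.60 without KO5. The counts of this gene are uncertain in one respect. BE692007, a noncoding transcript on the opposite strand, overlaps it, 51.26% of the windows of 100 bases in the Ms4a6c transcript also occurred in BE692007 or Prdm11 on either strand, and the strand setting of the counting is not given in the sources used here.

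Ms4a6d, a macrophage gene whose product associates with the complement receptor Vsig4, was at 5.52, 5.27 and 5.53 CPM in WT4, WT5 and WT6, the tightest WT values relative to their mean among the 9 genes. In KO4, KO5 and KO6 it was at 9.34, 7.70 and 10.2 CPM. KO5 was the lowest KO mouse, as for Ms4a4a, and the genotypes did not overlap. The log2 fold change was 0.73 ± 0.14, and 0.84 without KO5.

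Ms4a7, known from tissue macrophages, was at 3.62, 3.93 and 3.07 CPM in WT4, WT5 and WT6 and at 5.67, 6.76 and 7.41 CPM in KO4, KO5 and KO6. The log2 fold change was 0.90 ± 0.16, and the KO mice lay close together, all above WT. Without any 1 of the mice it stayed between 0.81 and 0.999.

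Ms4a15, the epithelial member, was near the limit of detection with 8 to 25 counts per mouse. Its levels were 0.403, 0.383 and 0.517 CPM in WT4, WT5 and WT6 and 0.635, 0.524 and 0.444 CPM in KO4, KO5 and KO6. The genotypes overlapped, and the log2 fold change of 0.28 ± 0.28 was no larger than its error, so a difference was not detectable at this depth.

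**Figure D1:**
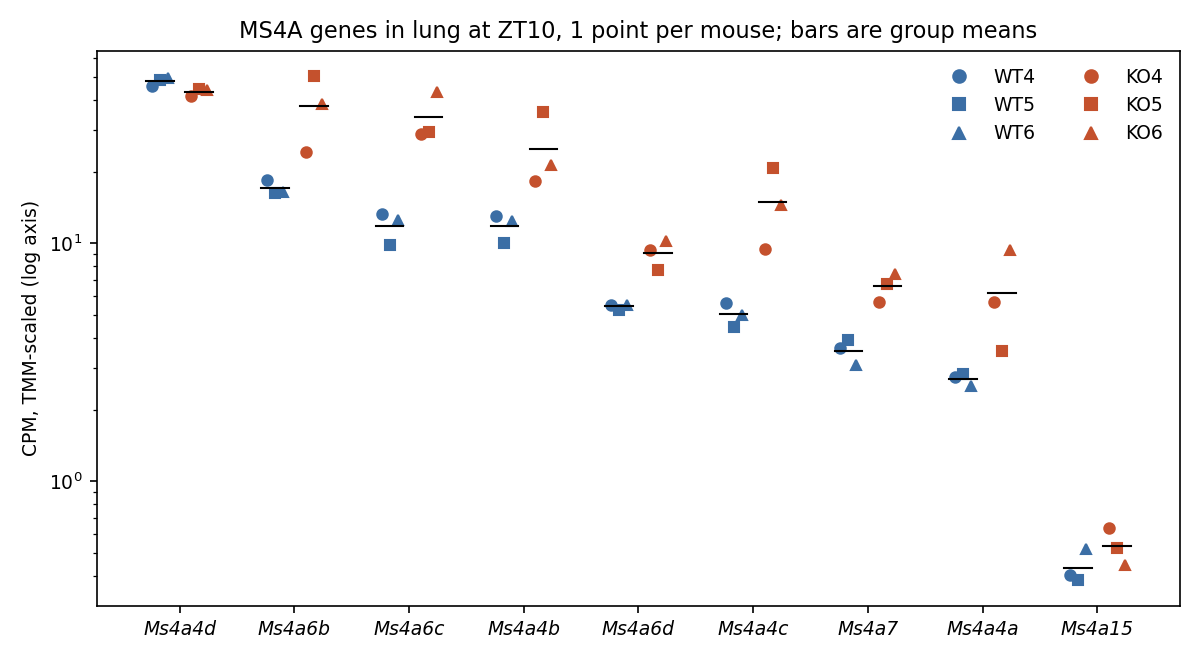
Levels of the 9 MS4A genes in CPM on a log axis, with 1 point per mouse (blue WT, red KO) and a bar at each group's mean. For 7 genes all 3 KO mice lay above all 3 WT mice, Ms4a4d lay slightly lower in KO and Ms4a15 overlapped.

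Of the 9 genes, all of which passed the filter on low counts, 8 had a log2 fold change above 0, and their median was 1.09 against 0.0030 for all 17037 genes tested. In 7 of the 9 all KO values were above all WT values, which held for 17.0% of all genes tested. In edgeR's quasi-likelihood fit 6 of the 9 (Ms4a4b, Ms4a4c, Ms4a6b, Ms4a6c, Ms4a6d and Ms4a7) were higher in KO at an adjusted p of at most 0.05, against 3.72% of all genes tested, and 0 were lower, against 2.67%. Past the additional limit of a log2 fold change of at least 1.5 were Ms4a4c and Ms4a6c, 2 of the 9, against 0.575% of all genes. Because the genes were chosen with this contrast known, nothing is read from these counts. The count of 6 rested on single libraries: it was 1 without WT4, 0 without WT5, 0 without WT6 and 1 without KO6. Without KO4 6 genes passed, and 7 without KO5. Over all genes the count of 1089 called was 254 without WT4, 1 without WT5, 63 without WT6 and 117 without KO6. All 9 log2 fold changes kept their sign whichever mouse was left out.

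**Figure D2:**
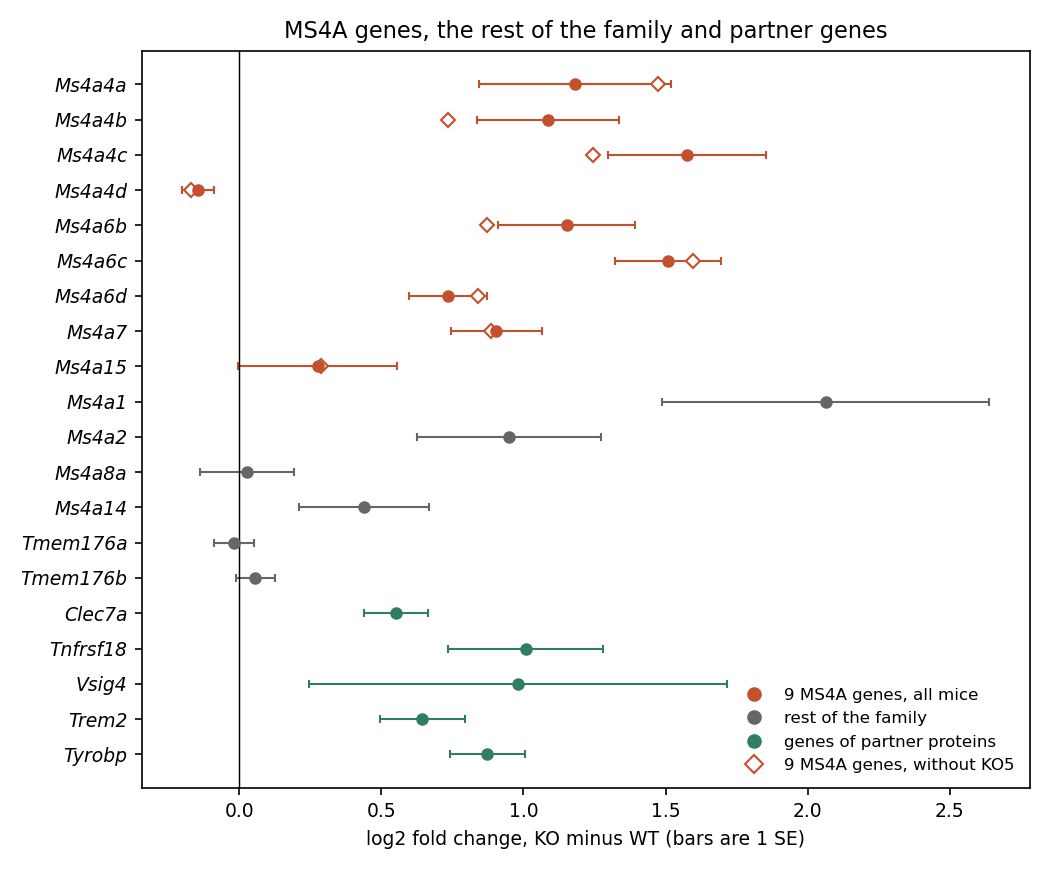
Log2 fold changes of KO over WT with 1 SE for the 9 MS4A genes (red), the 6 tested genes of the rest of the family (grey) and 5 tested genes of partner proteins (green), with open diamonds for the 9 genes without KO5. Leaving out KO5 lowered Ms4a4b, Ms4a4c and Ms4a6b and raised Ms4a4a, Ms4a6c and Ms4a6d.

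The rest of the family was listed by name and tested in the same fit. Of 14 such genes, Ms4a5, Ms4a10 and 4 others had 0 counts in every mouse, which with the floor of 3 counts allows at most 0.148 CPM in the shallowest library, and 6 were tested. With edgeR's quasi-likelihood test and adjustment over all genes, 0 of the 6 passed, 2 had an unadjusted p under 0.05, and DESeq2 called 1. Ms4a1 (CD20) was at 18.4, 18.8 and 24.3 CPM in WT4, WT5 and WT6 and at 41.4, 173 and 41.1 CPM in KO4, KO5 and KO6, a log2 fold change of 2.06 ± 0.58 (edgeR adjusted p = 0.0789). All KO mice lay above the WT mice, with KO5 far from the others, and without KO5 the log2 fold change was 0.9999 and this gene was the 1 called (edgeR adjusted p = 0.0127). Ms4a2, of mast cells, was at a mean of 0.397 ± 0.0824 CPM in WT and 0.799 ± 0.242 CPM in KO (SD, n = 3; edgeR adjusted p = 0.125). Ms4a14 had a log2 fold change of 0.44 ± 0.23 (edgeR adjusted p = 0.279) and Ms4a8a, an airway epithelial member, 0.03 ± 0.16 (edgeR adjusted p = 0.940). Tmem176a and Tmem176b, distant relatives of the family that lie on another chromosome, were at 298 ± 13.7 and 307 ± 11.9 CPM in WT, with log2 fold changes of -0.02 ± 0.070 and 0.06 ± 0.068 (edgeR adjusted p = 0.910 and 0.646).

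Genes of proteins that associate with MS4A proteins, or that signal beside them in macrophages, were higher in KO where they passed the test. Clec7a, which encodes Dectin-1, the partner of the Ms4a4a product, was at 39.8 ± 4.32 CPM in WT and 58.6 ± 7.34 CPM in KO (SD, n = 3), a log2 fold change of 0.55 ± 0.11 (edgeR adjusted p = 0.0374). Tyrobp, which encodes the signalling adaptor DAP12, was at 34.2 ± 4.52 CPM in WT and 62.8 ± 9.55 CPM in KO, a log2 fold change of 0.87 ± 0.13 (edgeR adjusted p = 0.0208). The other tested partners did not pass: Trem2, a DAP12-coupled receptor, had a log2 fold change of 0.64 ± 0.15 (edgeR adjusted p = 0.0514), Tnfrsf18, which encodes GITR, 1.01 ± 0.27 (0.0732) and Vsig4 0.98 ± 0.74 (0.450). Without KO5 the log2 fold change of Vsig4 was 0.088. Tnfsf18, the GITR ligand, had 2 to 20 counts per mouse and was below the filter. The count of 2 partner genes called was 0 without WT5, without WT6 or without KO6, 1 without WT4 (Tyrobp), and 4 with DESeq2, and without KO4 Clec7a was lost and Tnfrsf18 gained.

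Along the block, Ms4a4d lay between Ms4a6b and Ms4a6d and differed from both in the sign of its log2 fold change. Of the 14 annotated genes of the block outside the family, 4 were tested and 0 passed. Gm8369, a protein-coding gene between Ms4a6c and Ms4a6b, was at 2.78 ± 0.314 CPM in WT and 10.6 ± 7.99 CPM in KO, with counts of 104 (KO4), 944 (KO5) and 143 (KO6) (log2 fold change 1.96 ± 0.50, edgeR adjusted p = 0.0626). Without KO5 its log2 fold change was 1.13 (edgeR adjusted p = 0.027). BE692007, antisense to Ms4a6c, had a log2 fold change of 1.68 ± 0.59 (edgeR adjusted p = 0.134) and counts of 152 (KO4), 1974 (KO5) and 251 (KO6), and without KO5 the log2 fold change was 0.61. In KO5 its count was above that of Ms4a6c, 1406, whereas in KO4 and KO6 it was far below the 590 and 876 counts of Ms4a6c, so the pair did not move in step between mice.

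**Figure D3:**
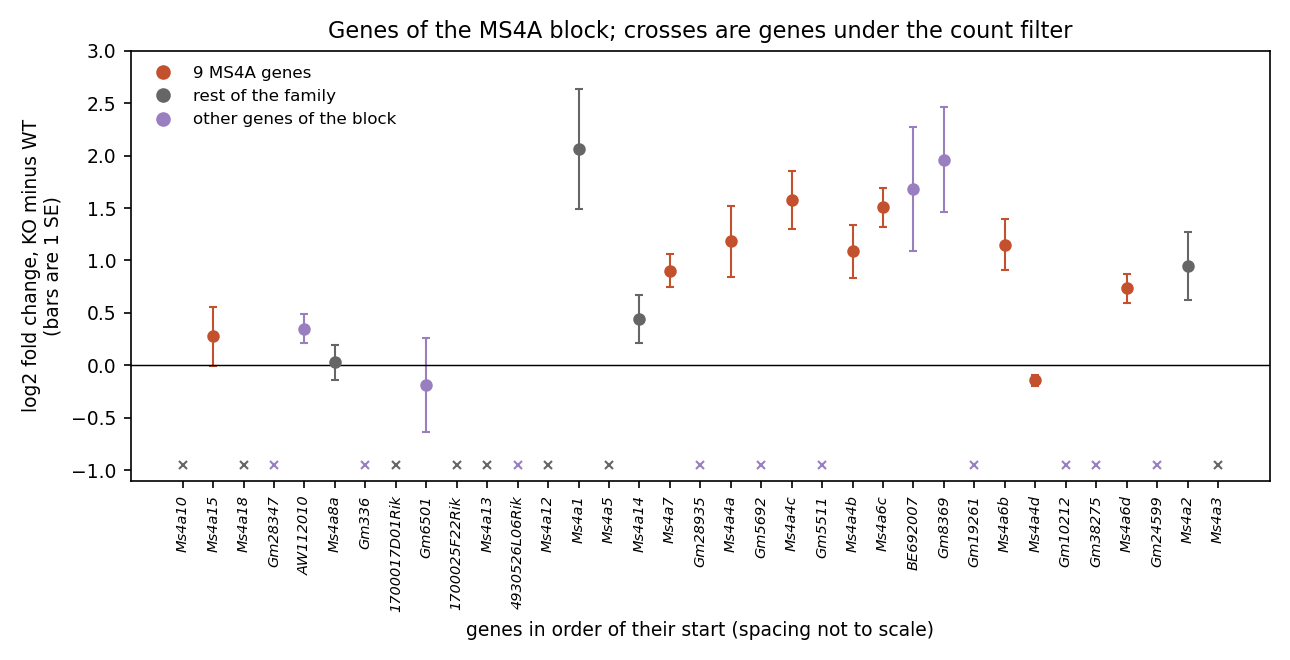
Log2 fold changes of KO over WT with 1 SE for the genes of the MS4A block in the order of their starts, with crosses for genes below the count filter. All values along the block are above 0 except those of Ms4a4d, -0.14, and Gm6501, a pseudogene outside the family, -0.18.

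The genes whose log2 CPM followed each member most closely over the 6 libraries were named without a test out of 15384 genes compared over 6 points that also differ in genotype and in depth. Closest to Ms4a4b were Gpr18, Dok3 and Arhgdib (Pearson's r of 0.999, 0.998 and 0.998). Closest to Ms4a4c were Rassf5, Ptprc and Xylt1 (0.999, 0.999 and 0.997), and closest to Ms4a6b were Il2rb, Eml5 and Xylt1 (0.999, 0.999 and 0.997). Ptprc encodes CD45, carried by all leukocytes, and Il2rb a receptor chain of T and natural killer cells. Closest to Ms4a6c were Ccr2, Tyrobp and Tnfaip3 (0.997, 0.996 and 0.995), and closest to Ms4a6d were Cd300e, Msrb1 and Clec4a1 (0.998, 0.997 and 0.995). Ccr2 is the chemokine receptor of classical monocytes and Cd300e a receptor of nonclassical monocytes. Among the closest to Ms4a7 were AI607873 and Spic (0.993 and 0.990).

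Markers of leukocytes in general and of some myeloid cells also differed between genotypes. All 5 genes of a general leukocyte list were higher in KO, among them Ptprc (log2 fold change 1.15 ± 0.21, edgeR adjusted p = 0.0290) and Cd52 (1.18 ± 0.20, 0.0252), with a median of 1.15 and summed levels of 414 to 485 CPM in WT and 693 to 1202 CPM in KO. Of 9 nonclassical monocyte genes 6 were higher, with a median of 1.27, among them Cx3cr1 (1.52 ± 0.17, edgeR adjusted p = 0.0118), while Ace (0.01 ± 0.085, 0.945), which lung endothelium also expresses, did not differ detectably. Of 8 classical monocyte genes 4 were higher, with a median of 0.82, among them Ly6c2 (0.99 ± 0.20, edgeR adjusted p = 0.0354) and Ccr2 (0.83 ± 0.11, 0.0176). Hp (-0.50 ± 0.13, edgeR adjusted p = 0.0710) and Vcan (-0.23 ± 0.23, 0.580) had values below 0. The summed levels overlapped, at 1373 to 1526 CPM in WT and 1394 to 1485 CPM in KO. These sums are mostly Fn1 and Hp, at means of 484 and 860 CPM in WT and 570 and 609 CPM in KO, and say little about the other genes.

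Of 11 interstitial macrophage genes 4 were higher at an edgeR adjusted p of at most 0.05, among them C1qa and C1qb (log2 fold changes of 0.65 ± 0.13 and 0.71 ± 0.14), with a median of 0.41. Of the same list 3 had values below 0, Lyve1 (-0.78 ± 0.21, edgeR adjusted p = 0.0698), Pf4 (-0.31 ± 0.13) and Stab1 (-0.06 ± 0.099), and did not pass. Of 10 alveolar macrophage genes 2 were higher, with a median of 0.27: Marco passed (1.26 ± 0.11) and Siglecf did not (0.44 ± 0.20). Of 6 tested neutrophil genes 3 were higher, with a median of 1.01, among them S100a8 and S100a9 (1.01 ± 0.17 and 1.12 ± 0.16). Of 7 dendritic cell genes 2 were higher, Flt3 among them (0.76 ± 0.17), and 1, Zbtb46, was lower (-0.35 ± 0.047). Of 7 natural killer cell genes only Ncr1 (0.79 ± 0.17) passed and Klrb1c (0.74 ± 0.22) did not, with a median of 0.74.

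Lymphocyte lists had high medians with no gene past the threshold. The median was 1.98 for 10 B cell genes, with Cd79a at 1.91 ± 0.51 (edgeR adjusted p = 0.0716), and 0.87 for 10 T cell genes, with Cd3d at 0.98 ± 0.32 and Cd3e at 0.85 ± 0.29 (0.114 and 0.122). Without KO5, 8 of the 10 B cell genes passed with a median of 1.01, and 0 of the 10 T cell genes with a median of 0.46. Of 7 tested mast cell genes 0 passed, Cpa3 and Mcpt4 included (0.48 ± 0.62 and 0.25 ± 0.61), with a median of 0.48. Of 10 interferon-stimulated genes 4 were higher, with a median of 0.37, while Ifit1 and Ifit3 did not pass (0.16 ± 0.15 and 0.40 ± 0.098).

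Lists of other lung cells lay near or below 0. The medians were -0.16 for 7 type 1 alveolar genes (Ager -0.16 ± 0.077, Hopx -0.22 ± 0.061, with 1 gene lower), -0.13 for 7 type 2 alveolar genes (Sftpc -0.23 ± 0.12, Sftpa1 -0.26 ± 0.085, with 0 called), -0.36 for 5 tested airway genes (Scgb1a1 -0.26 ± 0.16, Scgb3a2 -0.38 ± 0.23, with 0 called) and -0.13 for 7 endothelial genes (Pecam1 -0.14 ± 0.068, Cdh5 -0.07 ± 0.080, with 1 lower). All 5 red cell genes were lower in KO, with a median of -0.89, among them Hba-a1 (-0.85 ± 0.13, edgeR adjusted p = 0.0211) and Hba-a2 (-0.85 ± 0.11, 0.0137). The summed red cell level was 2126 to 2277 CPM in WT and 1035 to 1411 CPM in KO. As for the MS4A genes, the counts called in these lists rested on single libraries. The leukocyte list had 0 genes called without WT4, WT5 or WT6, and no list gave a call without WT5. Without KO6 the leukocyte, interstitial macrophage, neutrophil and red cell lists had 0. Without WT4 the alveolar macrophage and red cell lists had 3 each. Nonclassical monocyte genes called were 4 without WT4, 0 without WT6, 6 without KO4 or KO5 and 5 without KO6. The part of leukocyte number and of blood content in the MS4A values was not tested.

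**Figure D4:**
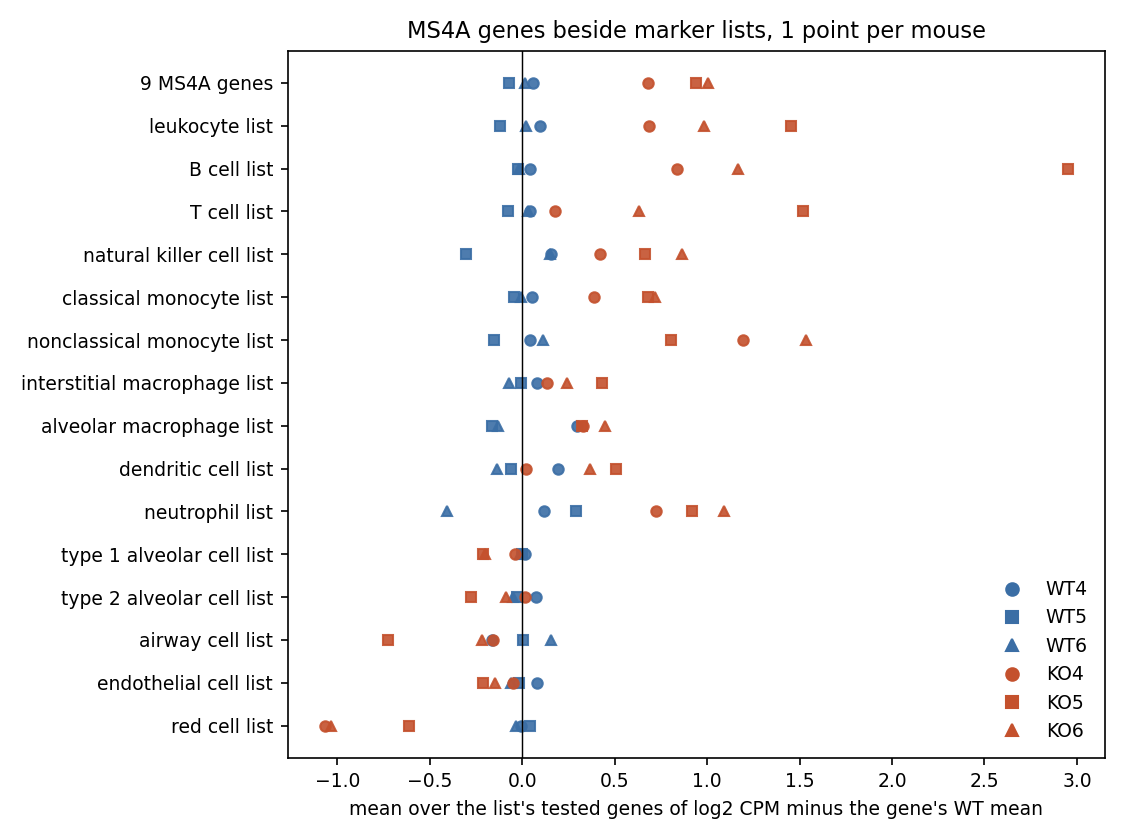
Mean over the tested genes of each list of log2 CPM minus the gene's WT mean, with 1 point per mouse (blue WT, red KO). KO5 stands furthest right for the leukocyte, B cell, T cell, interstitial macrophage and dendritic cell lists. KO6 does so for both monocyte lists and the alveolar macrophage, neutrophil and natural killer cell lists. For the 9 MS4A genes KO6 and KO5 were close, at 1.01 and 0.940. The red cell list lies to the left in all KO mice.

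KO4, KO5 and KO6 ranked differently by list, and the 9 genes differed in the list whose rank they shared. Ms4a4b, Ms4a4c and Ms4a6b had the order KO5, KO6, KO4 of the leukocyte list (summed level 1202, 876 and 693 CPM) and of the B cell and T cell lists. This order was not particular to lymphocytes. By the mean of log2 CPM the interstitial macrophage, dendritic cell and mast cell lists had it too, as did the red cell list, which was lower in KO. By summed CPM the dendritic cell and red cell lists kept it. The interstitial macrophage list was then in the order KO4, KO5, KO6 and the mast cell list in the order KO4, KO6, KO5. Ms4a4a and Ms4a6d had the order KO6, KO4, KO5. By the mean of log2 CPM the nonclassical monocyte, alveolar macrophage and interferon-stimulated lists had it too. By summed CPM the nonclassical monocyte list was in the order KO4, KO6, KO5. That sum is mostly Ace, at 1640 (KO4), 1393 (KO6) and 1354 CPM (KO5), so its order is that of Ace. In the nonclassical monocyte list Cd300e was at 23.4 (KO6), 16.8 (KO4) and 9.71 CPM (KO5). Ms4a6c and Ms4a7 had the order KO6, KO5, KO4 of the neutrophil, natural killer cell and classical monocyte lists, again by the mean of log2 CPM. By summed CPM the classical monocyte list was in the order KO5, KO6, KO4, a sum mostly of Fn1 and Hp. The alveolar macrophage list was in the order KO6, KO5, KO4 by summed CPM. Some orders were near ties: the alveolar macrophage means were 0.329 (KO4) and 0.325 (KO5), and Ms4a6c was at 28.8 (KO4) and 29.5 CPM (KO5). These are orders of 3 mice, with no test.

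Each gene was divided by the summed CPM of the 5 leukocyte genes in the same mouse, a scaling chosen after the values were seen. This sum was itself higher in all KO mice, so KO values fall relative to WT on this scale by construction. The share of all genes that overlapped on it was not determined, and nothing is read from which of the 9 genes overlapped. The ratio of the KO to the WT mean was 1.01 for Ms4a4b, 1.05 for Ms4a6b, 0.927 for Ms4a7, 0.858 for Ms4a6d and 1.19 for Ms4a4a, all with overlapping genotypes. For Ms4a4a KO5 lay below all WT mice, at 2.95 per 1000 leukocyte CPM against 5.65 to 6.83 in WT. KO4 and KO6 were above WT at 8.18 and 10.7. KO5 was also the lowest KO mouse for Ms4a6d and Ms4a7, at 0.522 and 0.702 of the WT mean. There KO4 was at 1.10 and 1.02 and KO6 at 0.952 and 1.06. Ms4a6c kept a ratio of 1.45 with overlapping genotypes, since KO5 was at 24.5 and WT at 23.7 to 28.5 per 1000 leukocyte CPM while KO4 and KO6 were at 41.6 and 49.4. Ms4a4c was the only one of the 9 whose KO mice all stayed above the WT mice, at 13.6 (KO4), 17.3 (KO5) and 16.6 (KO6) against WT values of 10.8 to 11.6, a ratio of 1.40. Ms4a4d, with a log2 fold change of -0.14 in CPM, was at 0.453 of WT on this scale without overlap, and Ms4a15 at 0.633 with overlap. The leukocyte sum itself was at 1.56 (KO4), 2.70 (KO5) and 1.97 (KO6) of the WT mean. A gene that rises less than this sum therefore falls on this scale by construction. Nothing is read from the fall of Ms4a4d and Ms4a15, or from the low KO5 values of Ms4a6d and Ms4a7.

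**Figure D5:**
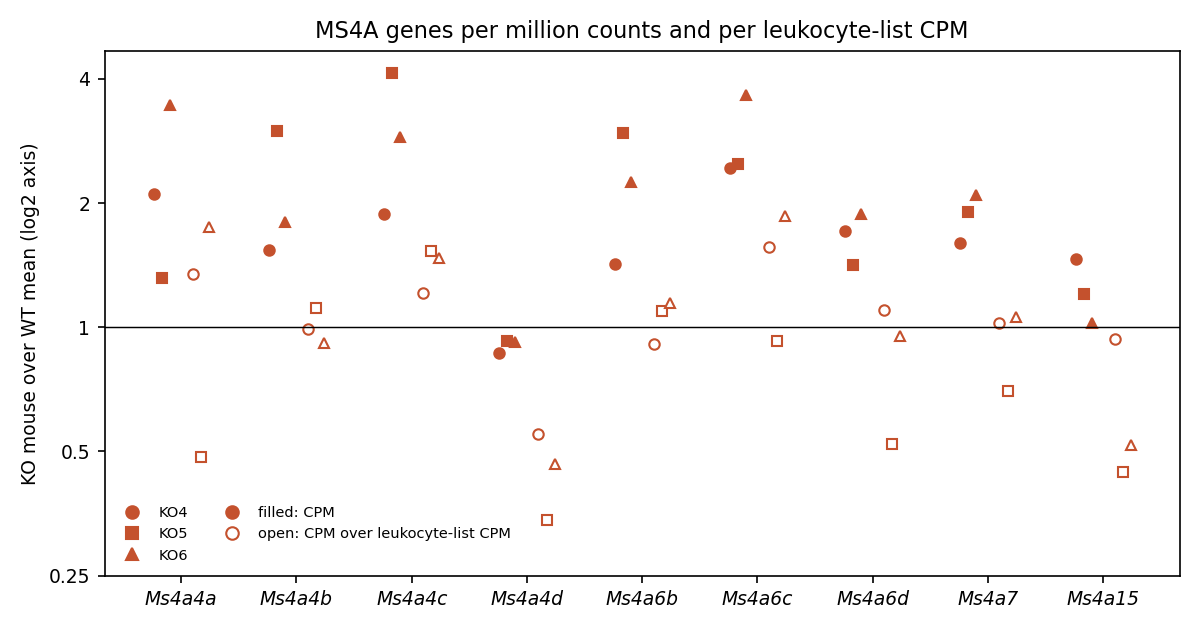
KO mice over the WT mean for each of the 9 genes on a log2 axis, as CPM (filled) and as CPM divided by the summed CPM of 5 leukocyte genes (open). On the second scale all 3 KO mice stay above 1 for Ms4a4c, and all 3 are below 1 for Ms4a4d and Ms4a15. The leukocyte sum was itself higher in all 3 KO mice, so genes that rise less than the sum fall below 1 there by construction.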

How the data were processed

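The counts were deposited by the authors as whole reads per Ensembl gene and mouse, without normalization, for 47069 genes. Per the labels, libraries were stranded messenger RNA, and the submitters' processing notes name Trimmomatic 0.36, STAR 2.5.3a, Picard 2.9.0, HTSeq 0.6.0 and GRCm38. The annotation release and strand setting of the counting are not given in the sources used here. Overlapping and closely related genes can share reads.

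Mice were grouped by the sample titles. All 6 libraries entered 1 fit without covariates, with edgeR 4.0.16 (R 4.3.3), TMM scaling, the default filter (minimum count 10, minimum total 15), which kept 17037 genes, the quasi-likelihood test and Benjamini-Hochberg adjustment. An SE is the log2 fold change divided by the square root of F. Genes were called at an adjusted p of at most 0.05, and also with a log2 fold change of at least 1.5. The fit was checked on simulated counts. RPKM used GENCODE M21 exons. Members and lists were chosen with earlier results of these data known. Named genes were the 9 members, the rest of the family, partner genes, the first 2 genes of each list, list genes a sentence turns on, and the 3 genes of mean CPM of at least 1 most correlated with each called member, of which 2 genes are not reported here. Gm8369, BE692007 and Gm6501 were named after their values were seen. Alternatives were DESeq2 1.42.0 and its size factors, upper-quartile factors, total counts, 2 other count filters, a replicate block, each mouse left out, no immunoglobulin genes, other transcript lengths and windows, and division by leukocyte genes. Python 3.11.15, pandas 2.3.3 and Matplotlib 3.10.9 were used.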

Additional observations from a re-analysis of the deposited data

How the results depend on the processing

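The log2 fold changes of the 9 genes kept their sign under all 14 alternatives of scaling, filter, test and samples, in 125 of 125 values. The number of MS4A genes called (6 in the report) was 7 with DESeq2 or with no count filter, and 0 to 7 with 1 mouse left out. Past the added fold limit (2 in the report) it was 1 with no count filter and 0 to 2 with 1 mouse left out. The median log2 fold change of the 9 genes was 0.82 to 1.23 with 1 mouse left out. The rest of the family gave 1 call, Ms4a1, with DESeq2 or with no count filter, and 0 to 1 with 1 mouse left out, and the partner genes gave 4 with DESeq2 and 0 to 2 with 1 mouse left out. Over all genes, 1913 were called with DESeq2 against 1089, and 1 to 1278 with 1 mouse left out. With the fold limit the count was 169 with DESeq2 and 211 with no count filter against 109, and 1 to 214 with 1 mouse left out. Why the counts moved was not tested.

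With the replicate number as a block (replicate block), 66 genes were called, 14 past the fold limit, 1 member by either rule (Ms4a6c) and 0 partner genes. The deviations of same-numbered mice from their group means correlated at -0.032, -0.15 and -0.021, and no mouse correlated best with its own number. With so few mice per genotype, a single mouse can set these values. They therefore cannot show whether same-numbered mice share more than a number, which was not tested.

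Division by the leukocyte genes was an alternative chosen after the values were seen. The log2 ratio was then -0.22 for Ms4a6d and -0.11 for Ms4a7, the reverse of the sign in CPM. KO5 was far the lowest mouse in both, at 0.522 and 0.702 of the WT mean. KO4 was at 1.10 and 1.02 and KO6 at 0.952 and 1.06, so these signs depend on KO5. In CPM, KO5 was at 1.42 and 1.91 of the WT mean for Ms4a6d and Ms4a7, and its leukocyte sum was at 2.70. The low ratios of KO5 follow from this division, and nothing is read from the reversed signs. Why the sum rose more than these genes was not tested. By the longest transcript the WT levels of Ms4a4b, Ms4a6d and Ms4a7 were 2.49, 3.84 and 0.982 RPKM. Motifs were in the windows of 6 members, and of 5 when only the part upstream of the start was searched. At 8 to 25 counts per mouse, depth limits Ms4a15, and 3 mice per genotype limit all calls.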
